A study of Arabidopsis thaliana with 16 samples.

Results

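The comparison set WRKY binding in the wrky18 wrky40 wrky33 triple mutant against binding in wild type (WT) of Arabidopsis thaliana, 2 h after the bacterial peptide flg22. Its members were the 4 peak lists of the immunoprecipitated libraries at 2 h, 2 per genotype, of 8 peak lists and 16 libraries in all. WT was accession Col-0 and the mutant was in the same background, so all 4 libraries shared that background, the antiserum and the treatment. Seedlings were 12 days old and were kept for 2 h in medium with 1 µM flg22. No group at 2 h without flg22 was analysed here, so the treatment cannot be told apart from elapsed time and handling. The 2 biological replicates of each genotype carried the same numbers, and each number marked a set of 4 conditions analysed together.

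WRKY proteins are a plant family of transcription factors that bind a short DNA element, the W-box, and many of them are produced when a plant perceives a microbe. The peptide flg22 is a piece of bacterial flagellin that the receptor FLS2 detects, after which MAP kinases and WRKY factors alter the expression of defence genes. WRKY18 and WRKY40 are related factors known to dampen parts of this response, and WRKY33 is known for its role in camalexin synthesis and resistance to necrotrophic fungi. The serum was made to recognise the whole WRKY family, and a site in the mutant may still be called because a further WRKY protein sits there. A call present in WT and absent from the mutant therefore does not tell which WRKY protein was bound.

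Each list gave, for every peak, a start, an end, the position of the maximum, scores and the gene of the nearest promoter. Lists held 1992 and 2074 peaks in WT replicates 1 and 2, and 2049 and 2213 in mutant replicates 1 and 2. No read numbers entered the comparison, which leaves the depth of the calls unknown. Peaks that shared at least 1 bp were merged across the 4 lists into 3663 regions with a median width of 476 bp. Scores were used only as a percentile within a library's own list, where 100 is the top peak. Peaks were wider in replicate 1 (medians of 564 bp in WT and 525 bp in the mutant) than in replicate 2 (385 bp and 363 bp).

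The mutated genes and a marker gene are given first. At the WRKY33 promoter, both WT libraries had a strong peak and neither mutant library had one. The region lay on chromosome 2 from 16107673 to 16108584 (TAIR10), and the WT peaks lay at -233 and -255 bp (negative values are upstream of the transcription start site, TSS), with percentiles of 94.2 and 93.3. In the mutant, WRKY33 was called only in replicate 2, at another site on the downstream side of its TSS (568 bp; chromosome 2, 16108799 to 16109060), with a percentile of 42.3. The 2 sites were 215 bp apart. WRKY33 is itself one of the mutated genes, and a part of the mutation in this difference was not tested.

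WRKY40 had 2 sites upstream of its TSS, and peaks covered both in all 4 libraries. The proximal region (chromosome 1, 30381228 to 30384173) had percentiles of 44.5 and 95.5 in WT and of 98.8 and 99.1 in the mutant, so the mutant lists ranked it above both WT lists. Most of this difference was in replicate 1, where the mutant value belongs to a 2946 bp peak that spans the whole region. At 0 h the values were 71.2 and 95.7 in WT and 53.1 and 98.5 in the mutant. WRKY40 is also one of the mutated genes, and a part of the mutation in this difference was not tested. The distal region, at about -3143 bp, had 74.8 and 99.9 in WT and 96.4 and 99.95 in the mutant, and these values overlapped. In mutant replicate 1 the distal site lay inside a 4422 bp peak that the authors' annotation assigned to AT1G80831, so the value of 96.4 belongs to that peak. WRKY18 had a weaker peak that was absent from WT replicate 1, with percentiles of 38.4 in WT replicate 2 and of 1.02 and 25.3 in the mutant. FRK1, a receptor kinase gene widely used as a marker of the flg22 response, had 12.7 and 32.4 in WT, no call in mutant replicate 1 and 68.3 in mutant replicate 2. Neither gene was called in both libraries of one genotype and in neither of the other.

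The question of which sites differed between genotypes was asked with one rule: a region called in both libraries of one genotype and in neither library of the other. WT-only regions numbered 63 of 3663 (1.72% of all regions) and mutant-only regions 59 (1.61%). Regions called in all 4 libraries numbered 845 (23.1%). Much larger numbers followed the replicate: 420 regions were called only in the 2 lists of replicate 1, and 438 only in those of replicate 2. WT replicate 1 shared 62.6% of the union of regions with mutant replicate 1 and 41.1% with WT replicate 2. Ranks followed the same order: across the 845 shared regions the Spearman rho of the percentiles was 0.764 and 0.639 between genotypes of the same replicate number, and 0.395 (WT) and 0.264 (mutant) between replicates of one genotype. The difference between replicates thus exceeded the difference between genotypes, and with 2 libraries against 2 no two-sided exact permutation test can give a p below 0.333.

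**Figure D1:**
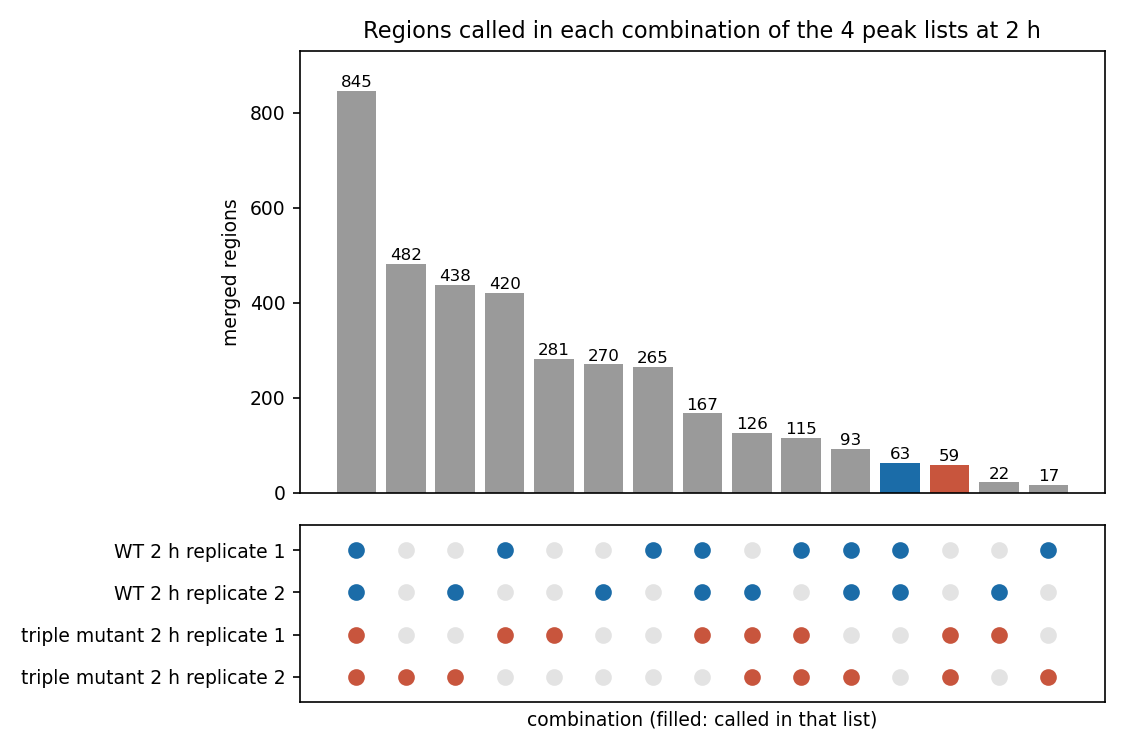
Number of merged regions (bars) in each combination of the 4 peak lists at 2 h; filled dots below a bar mark the lists that called the region. The 63 WT-only regions (blue) and 59 mutant-only regions (red) are few beside the 845 regions called in all 4 lists and the 420 and 438 regions shared only by lists of one replicate number.

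WT-only and mutant-only regions ranked low in the lists that called them. The median percentile was 28.9 over WT-only regions and 23.0 over mutant-only regions, against 69.0 over the regions called in all 4 libraries. Both libraries placed the region above their own median in only 3 WT-only and 2 mutant-only regions. A peak of the other genotype lay within 200 bp of 2 WT-only and 1 mutant-only region, so few of these differences were neighbouring peaks that had just failed to touch. The nearest gene was called elsewhere in the other genotype for 12 of the WT-only and 8 of the mutant-only regions.

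Among WT-only regions WRKY33 ranked highest, and the next regions were strong in one library only. An intergenic site at -4947 bp from the TSS of HA1, which encodes a plasma membrane proton pump, had percentiles of 92.5 and 55.5. The promoter of TBL15, of a family known for acetylating cell wall polysaccharides, had 95.9 and 38.4. The promoter of AT3G61185, listed as a pseudogene, had 91.7 and 49.6. For these 3 genes replicate 1 was the higher library each time, while over all 63 WT-only regions it was higher at 29 and replicate 2 at 34.

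The WT-only regions next in rank lay near genes of varied function. The promoter of IAGLU, which encodes a glucosyltransferase for the auxin indole-3-acetic acid, had 70.5 and 41.9. That of CKX5, a cytokinin dehydrogenase gene, had 43.6 and 55.5. KCS1, an enzyme gene of very-long-chain fatty acid synthesis, had 90.8 and 19.1 at a transcript end, a site that replicate 2 assigned to the neighbouring gene AT1G01130. The remaining WT-only genes named by rank were AT5G05140, AT5G64650, ALDH2C4, AT3G22410, AT5G44050 and AT5G39790, whose percentiles lay between 21.1 and 74.4. None of those 6 was in the upper part of both lists except AT5G05140, a gene for a transcription elongation factor-like protein, with 60.9 and 52.7.

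Of the immune and stress genes on the lists, 6 had a WT-only region: WRKY33, IDA, NPR3, IGMT4, CRK28 and WRKY1. These were 2.82% of the 213 list genes with any call at 2 h, against 1.87% of all 3375 genes with a call. All 6 lay in promoters, and all but WRKY33 ranked low in at least 1 list. IDA, a secreted peptide gene known from floral organ abscission, had percentiles of 7.00 and 59.6. NPR3, a salicylic acid receptor gene, had 54.5 and 1.23. IGMT4, a methyltransferase gene of the indole glucosinolate group, had 16.6 and 19.1, CRK28, a cysteine-rich receptor-like kinase gene, had 2.54 and 22.3, and WRKY1 had 8.43 and 15.7. At none of these 5 promoters was a peak called in any of the 4 lists at 0 h.

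Among mutant-only regions the highest ranked were the promoter of UBP20, a ubiquitin protease gene (57.2 and 67.0), and a site upstream of the oil-body protein gene OLEO4 (70.5 and 50.6). LOX1, a lipoxygenase gene of the branch that does not lead to jasmonate, had 85.6 and 31.1 at an intergenic site at -2403 bp. The UBP20 and OLEO4 regions were the only mutant-only regions above the median of both mutant lists. The other genes named by rank were AT3G60850, AT2G29065, AT1G63835, TBL39, TRM21, AT4G27120, AT1G30320, RLP13, AT1G55830 and AT4G29750. Their percentiles spanned 8.22 to 91.3, and at AT2G29065, a GRAS family gene, the 2 mutant libraries differed most, with 91.3 and 12.6.

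List genes with a mutant-only region were LOX1, PEN2, CYP79B2, NPR1, RPM1 and MPK3, again 6 genes (2.82% of 213, against 1.75% of all 3375). In each of the last 5, replicate 2 was the higher library, as it was at 39 of all 59 mutant-only regions. RPM1, an intracellular immune receptor gene, had percentiles of 6.95 and 47.4 at its promoter, and MPK3, a MAP kinase gene of flg22 signalling, had 12.7 and 24.3. NPR1, the salicylic acid response regulator gene, had 2.05 and 59.7. CYP79B2, which encodes the entry enzyme to indole glucosinolates and camalexin, had 8.22 and 58.2 at about 1 kb upstream. PEN2, a myrosinase gene of the same pathway, had 4.44 and 68.3 at an intergenic site 4249 bp downstream of its TSS, while its promoter was called in all 4 libraries. No WRKY gene had a mutant-only region.

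A feature that the rule did not use separated the WT-only from the mutant-only regions: their calls in untreated seedlings. At 0 h the WT-only regions were called in 10 and 4 of 63 cases in WT replicates 1 and 2, and in 2 and 5 cases in mutant replicates 1 and 2. The mutant-only regions were called in 30 and 25 of 59 cases in WT and in 39 and 35 cases in the mutant. In shares, this was 3.17% to 15.9% of the WT-only regions and 42.4% to 66.1% of the mutant-only regions, with no overlap over the 4 lists at 0 h, against 35.4% to 43.4% of all 3663 regions. Of the WT-only regions, 46 (73.0%) had no call in any list at 0 h, against 9 (15.3%) of the mutant-only regions and 38.1% of all regions.

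The low share thus held in both genotypes before treatment. WT lists at 0 h lacked 50 of the 63 WT-only regions, or 79.4% of them beside 49.5% of all regions. Of the 59 mutant-only regions, 40 (67.8%) were called in at least 1 WT list at 0 h, beside 50.5% of all regions. All 4 lists at 0 h held 13 of the 59 (22%), near the 18.6% of all regions. LOX1 was one of those 13, with percentiles of 91.6 and 53.8 in WT and of 91.8 and 41.3 in the mutant at 0 h. RPM1 (48.0 to 62.8 over the 4 lists at 0 h), MPK3 (30.4 to 67.3), PEN2 (10.8 to 40.1), RLP13, AT1G55830 and AT4G27120 were others. The WRKY33 promoter was the only WT-only region called in both WT lists and neither mutant list at 0 h as well, with WT percentiles of 82.9 and 94.0.

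Regions that missed the rule by 1 library showed calls at 0 h in the same order. Regions called in both WT lists and 1 mutant list (260) were called at 0 h in 26.9% to 40.4% of cases, and 92 (35.4%) had no call at 0 h. Regions called in both mutant lists and 1 WT list (241) were called in 61.4% to 71.0% of cases, and 21 (8.71%) had no call. Regions called in all 4 lists at 2 h were called in 77.2% to 82.1% of cases. No test was run on these shares, since regions of the same libraries are not replicates. One list at 0 h, WT replicate 1, lacked 136 of its 1508 region numbers. Without that list the share of regions with a call at 0 h was 15.9% of WT-only regions (27.0% with it) and 81.4% of mutant-only regions (84.7% with it). The WT-only share depended on the strength of the peaks: with peaks at or above each list's median score at 2 h, 55.6% of 36 WT-only regions and 94.6% of 37 mutant-only regions had a call at 0 h.

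**Figure D2:**
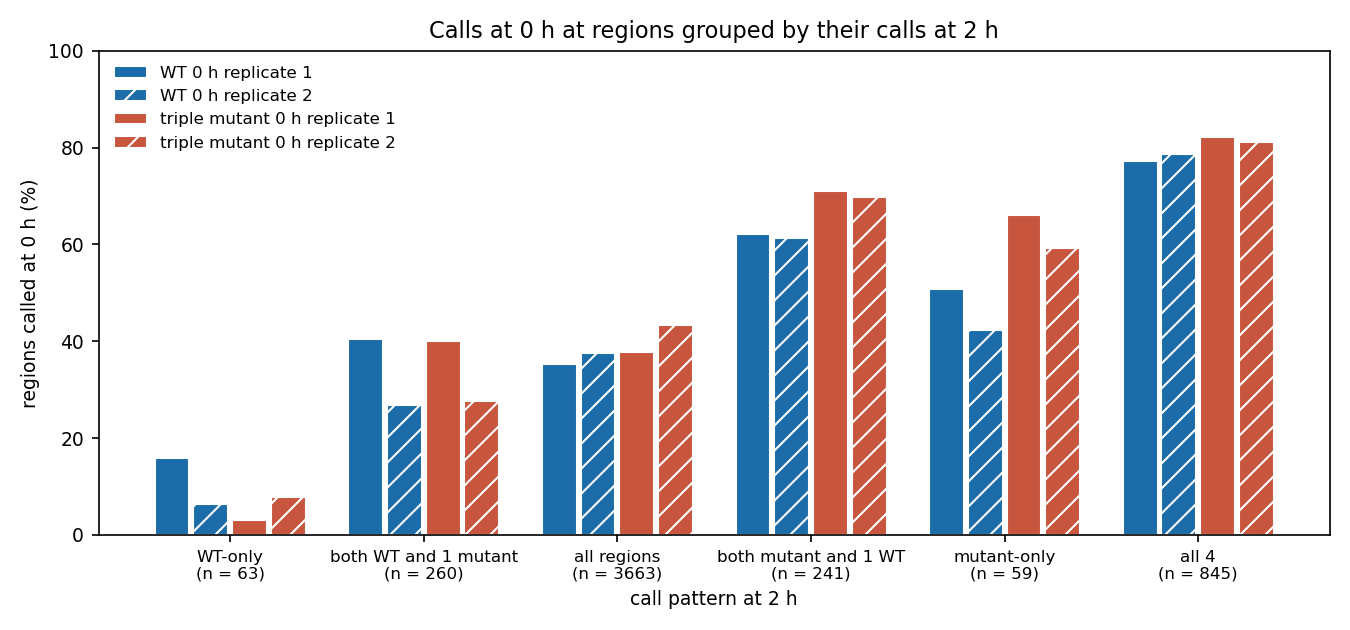
Share of regions (%) called in each of the 4 lists at 0 h (bars; blue WT, red triple mutant, hatched replicate 2), for regions grouped by their call pattern at 2 h. WT-only regions lie between 3.17% and 15.9% and mutant-only regions between 42.4% and 66.1%; the 2 groups called in 3 lists lie between 26.9% and 40.4% and between 61.4% and 71.0%.

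The kinds of site differed in the same direction between groups of regions and between lists. Promoter calls made up 49.2% of calls at WT-only regions, 64.4% at mutant-only regions and 64.6% at regions called in all 4 lists, and intergenic calls made up 25.4%, 14.4% and 17.1%. Over whole lists, the promoter share was 61.3% and 61.4% in WT and 63.5% and 65.0% in the mutant. That is 61.4% ± 0.0238 in WT against 64.3% ± 1.02 in the mutant (SD, n = 2 each), a difference of 2.9 percentage points (exact permutation test, two-sided p = 0.333, the lowest that 2 against 2 allows). The intergenic share was 18.5% and 17.4% in WT and 16.8% and 14.4% in the mutant (exact permutation p = 0.333). The genotypes did not overlap in either share, but this design cannot pass a threshold of 0.05.

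At the 845 regions called in all 4 libraries, the question was whether the mutant ranked a site higher or lower than WT. No region passed limma on the percentiles at a Benjamini-Hochberg adjusted p of 0.05 (0 of 845, or 0%, with 22 at an unadjusted p under 0.05). With the replicate number as a block limma again called 0, with 69 at an unadjusted p under 0.05. Between single libraries, the genotypes differed by a median of 10.3 percentile points in replicate 1 and 14.0 in replicate 2, and the replicates by 18 points in WT and 21.0 in the mutant. The 2 genotype groups did not overlap at 116 regions where the mutant was higher (13.7%) and at 97 where it was lower (11.5%). Values of single regions below describe these 4 libraries, and the lowest adjusted p in limma was 0.999 without the block and 0.597 with it.

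Regions ranked lower in the mutant included sites at defence and ethylene genes. An intergenic site at -3604 bp from ACS8, an ethylene synthesis enzyme gene, had percentiles of 66.6 and 89.5 in WT and of 47.2 and 12.6 in the mutant. The promoter of LECRK-IX.2, a lectin receptor kinase gene, had 79.9 and 73.8 in WT and 42.7 and 15.5 in the mutant. A distal site of WRKY53, a factor gene of leaf senescence and defence, lay at -2044 bp and had 77.7 and 91.1 in WT and 51.9 and 38.0 in the mutant. In contrast, the proximal WRKY53 promoter ranked near the top of every list, from 97.9 to 98.5. SZF1, a zinc finger gene of stress responses, had 50.7 and 55.5 in WT and 20.9 and 2.08 in the mutant.

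The other regions among the 10 with the largest difference in this direction lay near AT4G28160, AT5G47730, AT1G14340, UTR2, FUT4 and BEH3. AT4G28160, a gene for a hydroxyproline-rich cell wall glycoprotein, had the largest difference. Its values were 62.9 and 71.7 in WT and 3.10 and 26.1 in the mutant. That is a difference of -52.7 ± 13.9 (moderated SE of limma without the block, which draws on the spread of all regions). FUT4 is a fucosyltransferase gene, and its region had 92.8 and 76.9 in WT and 70.5 and 14.0 in the mutant. BEH3 encodes a homologue of the brassinosteroid regulator BES1, and its promoter had 47.1 and 73.8 in WT and 26.2 and 12.6 in the mutant. Of these 10 regions, 4 had no call at 0 h in any list: AT4G28160, AT5G47730, LECRK-IX.2 and UTR2. That was so for 5.21% of all 845 regions and for 11.3% of the 97 ranked lower.

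Among regions ranked higher in the mutant, the largest difference was at a transcript end near AT2G46735. Percentiles there were 4.04 and 19.1 in WT and 70.5 and 67.0 in the mutant (57.2 ± 12.2, moderated SE of limma without the block). The promoter of AT1G72141 had 24.7 and 33.6 in WT and 70.8 and 86.6 in the mutant. SULTR4;1, a vacuolar sulfate transporter gene, had 31.3 and 3.38 in WT and 82.4 and 49.8 in the mutant. At UGD2, a UDP-glucose dehydrogenase gene, the values were 35.3 and 3.38 in WT and 61.8 and 70.1 in the mutant. The remaining regions were those of AT5G24040, AT5G18460, AT3G04854, AT1G26690, AT4G11630 and ZPR1.

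All of these 10 regions had a call at 0 h, as did 94.8% of the 845, and 8 were called in all 4 lists, beside 58.7% of the 845. AT5G24040 had percentiles of 66.6 and 22.3 in WT and of 95.6 and 91.6 in the mutant at 2 h, beside 98.5 and 81.2 in WT and 99.0 and 90.6 in the mutant at 0 h. At the promoter of AT4G11630, a ribosomal protein L19 gene, the 2 h values were 24.7 and 52.7 in WT and 81.6 and 85.3 in the mutant, beside 79.7 and 78.1 in WT and 76.0 and 67.9 in the mutant at 0 h. In both genes the 2 WT lists at 2 h held the lowest values of the 8 lists. ZPR1, a gene for a little zipper protein of leaf development, was called in 2 lists at 0 h and differed mainly in replicate 2 at 2 h, with 8.43 and 1.23 in WT and 19.8 and 78.1 in the mutant.

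**Figure D3:**
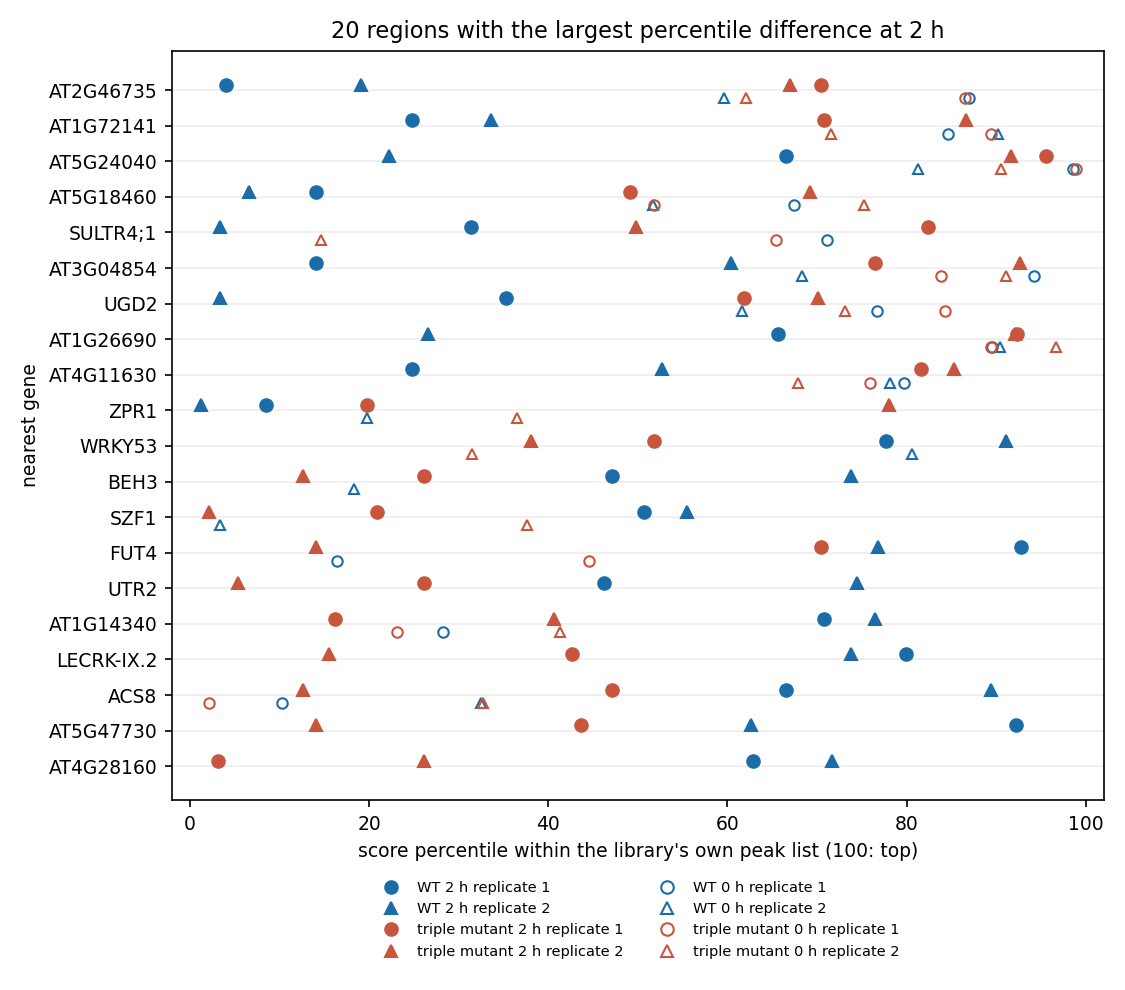
Score percentile within each library's own list (x axis) at the 10 regions with the largest difference in each direction, by nearest gene. Filled symbols are the 2 h lists and open symbols the 0 h lists where the region was called; at AT2G46735 the WT lists at 2 h gave 4.04 and 19.1 while the other lists gave 59.6 to 87.0.

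These groups of regions also differed in their calls at 0 h. Of the 116 regions ranked higher in the mutant, 83 (71.6%) were called in all 4 lists at 0 h, against 40 of the 97 ranked lower (41.2%) and 58.7% of all 845. The 2 h values chose both groups, and the 0 h values did not. Among the 83, median percentiles at 0 h were 80.7 and 71.3 in WT and 80.4 and 78.4 in the mutant. Among the 40, they were 65.4 and 51.3 in WT and 64.4 and 51.8 in the mutant. Over all 496 regions called in all 8 lists they were 75.2 and 72.0 in WT and 74.4 and 76.4 in the mutant. The 83 regions thus lay near the medians of all regions at 0 h, and the 40 lay below them in every list.

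For the same 83 regions the medians at 2 h were 56.7 and 58.9 in WT and 79.6 and 83.7 in the mutant, an order that the choice of these regions fixed. For the 40 regions the medians at 2 h were 86.8 and 90.2 in WT and 77.8 and 73.8 in the mutant. Lists at 0 h held fewer peaks (1372 to 1720), so percentiles at 0 h and 2 h stand side by side and their difference is not a change in binding. At 496 regions called in all 8 lists, the genotype difference at 2 h and that at 0 h had a Pearson correlation of 0.120 and a Spearman rho of 0.154 across regions, which share libraries and are not independent.

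Immune and stress list genes carried 93 of the 845 regions, at 82 genes. The mutant was lower with no overlap at 15 of the 93 (16.1%, beside 11.5% of all regions) and higher at 5 (5.38%, beside 13.7%). In both replicate pairs the mutant was lower at 39 of the 93 (41.9%) and higher at 13 (14.0%), while over all 845 the shares were 27.9% and 31.1%. The median difference was -4.46 percentile points for the list and 0.07 for all regions. These counts describe the 4 libraries, with no test of the list. List regions outside the 10 largest differences and outside each list's 3 top members were named after their values were seen.

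**Figure D4:**
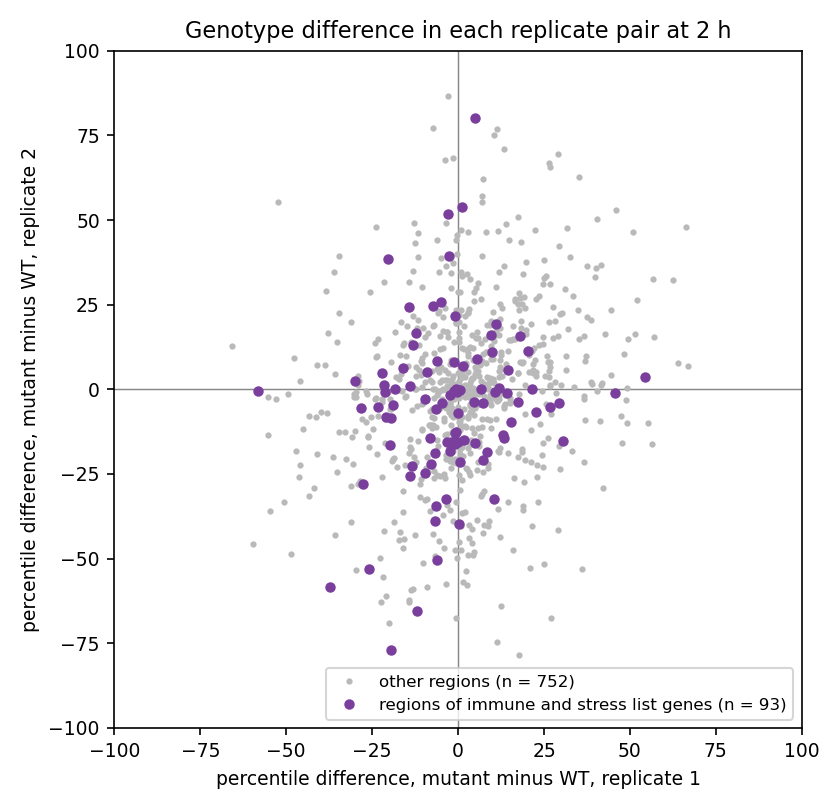
Percentile difference, triple mutant minus WT, in replicate 1 (x axis) and replicate 2 (y axis) at 2 h, for each of the 845 regions called in all 4 lists. Purple points are the 93 regions of immune and stress list genes; 39 of them lie below 0 in both pairs and 13 above 0 in both.

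Ethylene genes had the lowest median difference among lists with more than 2 regions, at -20.9 points over 6 regions. Of these, 4 were lower in both pairs and none was higher in both. The 6 regions belonged to only 3 genes, ACS6, ACO4 and ACS8. The lower regions without overlap were 3: the ACS8 site above, the ACS6 promoter and a site at -1505 bp from ACO4. That ACO4 site was annotated as a transcript end, although it lay upstream of the ACO4 TSS. ACS6, an ethylene synthesis gene whose enzyme is a target of flg22-activated MAP kinases, had percentiles of 42.8 and 61.2 in WT and of 15.0 and 33.3 in the mutant at its promoter. Its stronger site at -1832 bp overlapped between genotypes, with 99.9 and 88.5 in WT and 98.9 and 72.5 in the mutant. ACO4 encodes the last enzyme of ethylene synthesis. Its site at -1505 bp had 78.0 and 72.3 in WT and 71.9 and 22.1 in the mutant. The ACO4 promoter overlapped between genotypes, with 78.4 and 45.5 in WT and 66.2 and 62.3 in the mutant, a difference of 2.28.

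Among other stress transcription factors, 7 of 10 regions were lower in both pairs and 2 were higher. The promoter of HSFA4A, a heat stress factor gene, had 93.9 and 85.1 in WT and 81.9 and 19.8 in the mutant. The strongest members mostly overlapped between genotypes: ERF1A had 97.6 and 99.8 in WT and 97.4 and 99.0 in the mutant, and ZAT10 had 89.2 and 98.6 in WT and 86.8 and 96.9 in the mutant. BZIP60, a gene of the unfolded protein response, had 99.0 and 98.5 in WT and 97.9 and 97.9 in the mutant, a separation of about 1 percentile point.

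For camalexin and indole compounds, 7 of 11 regions were lower in both pairs and none was higher in both. Its top members PEN4, PEN3 and FOX1 ranked high in every list. PEN4, a phytochelatin synthase gene of pre-invasion defence, had 99.1 and 99.4 in WT and 98.6 and 99.4 in the mutant. PEN3, a transporter gene of that defence, had 99.9 and 97.3 in WT and 99.8 and 90.4 in the mutant. FOX1, an oxidase gene of an indole-derived defence compound, had 99.7 and 94.4 in WT and 99.6 and 78.7 in the mutant. In each of these 3 genes the genotypes overlapped.

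WRKY genes had 14 regions called in all 4 lists, of which 5 were lower and 2 higher in both pairs. Without overlap, the distal WRKY53 site and the promoters of WRKY60 and WRKY15 were lower and the proximal WRKY40 region was higher. WRKY30, one of the strongest, had 84.2 and 95.6 in WT and 95.0 and 94.6 in the mutant. Pattern perception genes did not lean one way, with 2 of 15 regions higher and 3 lower in both pairs. PROPEP3, the precursor gene of a danger peptide, lay at 98.8 or above in all 4 lists, and the chitin receptor gene CERK1 had 97.7 and 91.6 in WT and 99.5 and 76.5 in the mutant. PCRK1, a kinase gene of pattern-triggered immunity, had 77.7 and 95.1 in WT and 92.0 and 94.1 in the mutant. LYK4, a chitin receptor gene, was the list gene with the largest difference towards the mutant, with 46.2 and 5.04 in WT and 51.2 and 85.1 in the mutant.

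Ubiquitin ligases of immunity had 3 of 10 regions higher and 3 lower in both pairs. ATL31 had 96.6 and 75.5 in WT and 95.6 and 97.1 in the mutant, and CMPG1 had 98.8 and 72.9 in WT and 96.3 and 54.7 in the mutant. In replicate 2 the ATL31 value is that of the higher of a distal and a proximal peak. The distal peak had 72.9 in WT and 97.1 in the mutant, and the proximal peak 75.5 in WT and 47.4 in the mutant. PUB23, a ligase gene known to limit immune signalling, held sites of both kinds. Its promoter had 55.2 and 47.7 in WT and 66.2 and 67.0 in the mutant, and its distal site had 95.7 and 67.7 in WT and 89.4 and 33.3 in the mutant. Only the promoter values did not overlap.

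The list of cysteine-rich and wall-associated kinases, which also held lectin receptor kinases, had 4 of 8 regions lower and 1 higher in both pairs. The lectin receptor kinase gene LECRK-IX.2 was among the 4. CRK45 and LECRK-VI.2 ranked between 80.4 and 97.1 in all 4 lists at 2 h. CRK14 lay between 98.4 and 99.2 in 3 of these lists and at 40.1 in mutant replicate 1. Of 9 regions of secreted peptides and wall defence, 3 were lower and 1 higher in both pairs, and its top members SCOOP12, SNAP33 and PRX71 overlapped between genotypes. The MAP kinase genes with such a region were MAPKKK5, MKK2 and MAPKKK14, and none of their 3 regions had the same sign in both pairs. Calcium signalling had 4 regions, 2 of them higher in both pairs, with CBP60G, GLR2.9 and CML37 as top members. The remaining lists had at most 2 regions each: LOX4 and JAZ1 for jasmonate, NIMIN2 for salicylic acid and VQ29 for VQ-motif partners. Intracellular immune receptors, photosynthesis genes and housekeeping genes had none.

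The position of the maximum within a region was compared last, since a difference could mark another site under one peak. Most maxima lay close together: the mean positions differed by under 50 bp at 681 of 845 regions (80.6%). Between single libraries, the median gap between genotypes was 16.0 bp in replicate 1 and 22 bp in replicate 2, and that between replicates was 70.0 bp in WT and 78.0 bp in the mutant. No region passed limma (0 of 845, or 0%, with 6 at an unadjusted p under 0.05 and a lowest adjusted p of 0.361). With the replicate block limma also called 0, with 8 at an unadjusted p under 0.05. The groups did not overlap at 104 regions (12.3%), and they stood 100 bp or more apart at 6 (0.710%).

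The clearest separation was at the promoter of AT5G18500, a protein kinase gene. Maxima lay at -602 and -618 bp from the TSS in WT and at -216 and -200 bp in the mutant, a difference of 402.5 bp towards the TSS against replicate gaps of 17 and 16 bp (limma adjusted p = 0.361). The peak of WT replicate 1 was 1022 bp wide and covered both positions. In mutant replicate 1 a separate peak was called at the WT position too, with a percentile of 70.8 against 75.8 for the one nearer the TSS, so that library held both sites. In mutant replicate 2 only the nearer one was called. The 1 library at 0 h with a call there, mutant replicate 1, had its maximum 388.5 bp from the WT mean, beside those of the mutant at 2 h.

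AT2G38870, a gene for a potato inhibitor I-type protease inhibitor, had maxima at -282 and -252 bp in WT and at 164 and 88 bp in the mutant. All 4 lists at 0 h placed this maximum from -447 to -361 bp relative to the WT mean at 2 h, where the mutant lists at 2 h also lay (-432 and -355 bp). The WT lists at 2 h therefore stood apart from the other 6. At AT1G26410, an oxidase gene of the berberine bridge type, the maxima lay at -84 and -142 bp in WT and at -590 and -490 bp in the mutant. The midpoints of the AT1G26410 peaks differed the other way, by -45.0 bp.

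The other 3 regions with groups 100 bp or more apart were the promoters of AT3G18250, PMT6 and RGXT2, with differences of 338, 213.5 and -122 bp; the latter 2 were named after their values were seen. At PMT6, a putative polyol transporter gene, the maxima lay at -615 and -677 bp in WT and at -844 and -875 bp in the mutant. The rest of the 10 largest differences, at ATL31, EXO70H1, FH4, AT1G62301, PUB12 and AT1G23710, came with gaps between groups of 13 to 60 bp. Each of those 6 also had 1 genotype whose replicates lay 512 to 1005 bp apart. At ATL31 and EXO70H1 both replicate 2 lists held more than 1 peak at matching positions. A different one of these was the strongest in each genotype. Over the 104 regions without overlap, 42.9% to 70.9% of the maxima at 0 h lay nearer the mutant mean than the WT mean at 2 h, by list, with mutant replicate 2 as the highest. Over the 6 regions 100 bp or more apart, few of which were called at 0 h, it was 3 of 3 and 2 of 3 maxima in WT and 4 of 5 and 2 of 3 in the mutant.

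**Figure D5:**
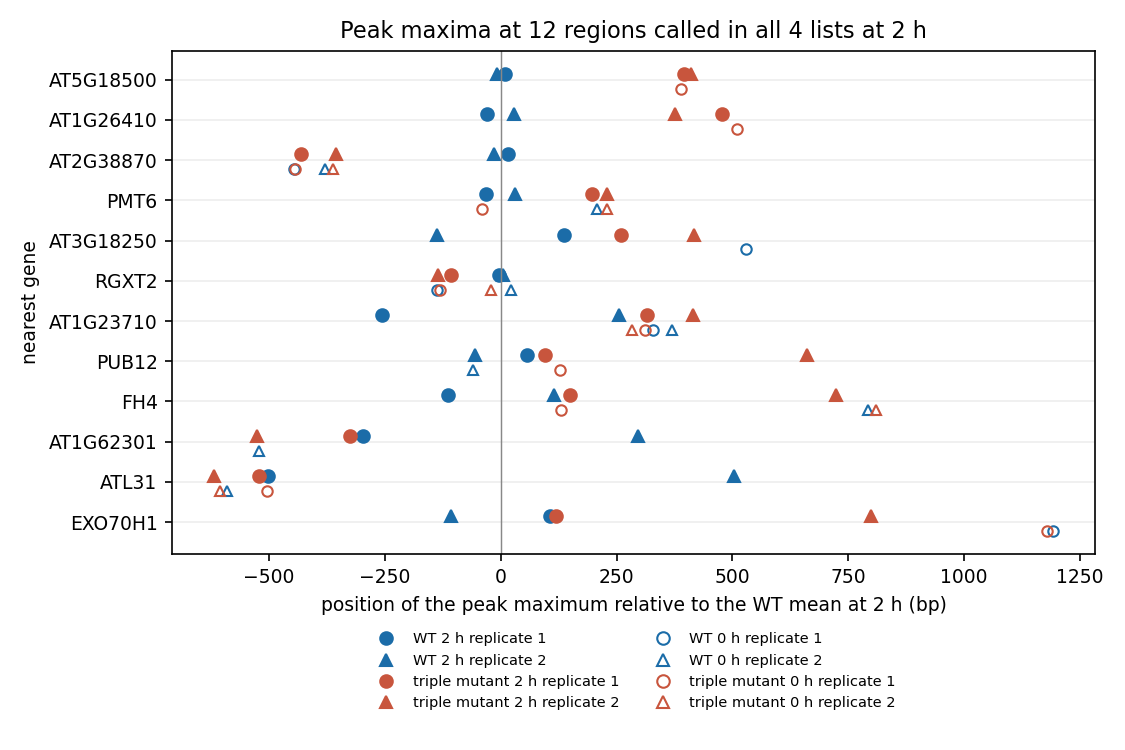
Position of the peak maximum relative to the WT mean at 2 h (bp, along the chromosome) at the 10 regions with the largest difference and 2 more whose groups lay 100 bp or more apart, by nearest gene. Filled symbols are lists at 2 h and open symbols lists at 0 h; at AT2G38870 all 4 lists at 0 h lie between -447 and -361 bp, beside the mutant at 2 h.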

How the data were processed

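Chromatin of seedlings was precipitated with an anti-all-WRKY serum, and the DNA was linearly amplified before library construction, per the labels' protocols. Per the submitters' processing notes, the build was TAIR10 and the tools included Bowtie2 2.0.5, HOMER, SAMtools 0.1.18, FastQC 0.11.2 and cutadapt 1.2.1. The program that called peaks, and its settings, are not stated there. Amplification and calling thresholds can change which weak sites enter a list. The deposited files hold 1 peak list per library, with the authors' peak score, an ef score, a region log q score, the annotation and the distance to the TSS; the scale of these scores is not given, so scores were used only within a list. Input libraries served the authors as controls for calling and were not analysed here.

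Peaks were merged at 1 bp of overlap with pandas 2.3.3. Where a list had several peaks in a region the highest scoring one was used. Percentiles and maxima were tested with limma 3.58.1 (R 4.3.3), Benjamini-Hochberg adjusted over 845 regions at 0.05, and shares with exact two-sided permutation tests (scipy 1.17.1). The limma fit and the region rule were run on simulated data only to check the code. The simulated percentile shifts were larger than the percentile scale allows, and the simulated sites lay well apart. The power to find shifts of the size seen here was not tested. Distances are from the peak's midpoint as deposited; distances of a maximum were derived from them. Genes are the authors' nearest promoters at any distance, and 3332 of 3375 were found in RefSeq (TAIR10.1), used for names only. Lists held 522 genes in 14 immune and stress lists and 2 control lists; 524 of 542 symbols were matched.

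Named were WRKY18, WRKY40, WRKY33 and FRK1; up to 15 list genes and 12 others with the highest mean percentile for WT-only and mutant-only regions; the 10 largest differences without overlap per direction (percentile) or in all (maximum); and the top 3 members per list called in all 4 libraries. Members, lists and rules were chosen with earlier results of these data known. Replicate numbers pair the samples: the series' design text gives 4 conditions for each biological replicate, and replicate differences correlated between genotypes across regions (0.457 for calls, 0.610 for percentiles). Alternatives were stricter or equal lists, cut peaks, other score scales, genes for regions, each library left out and the replicate block.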

Additional observations from a re-analysis of the deposited data

Results flagged for a closer look

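The 4 regions given here had genotype differences of opposite signs at 0 h and 2 h in every library. This difference between time points was not tested. At CPC the genotypes differed in calls, and at the rest in percentiles. Opposite signs of the mean percentile difference were common among regions called in all 8 lists. At 0 h it was negative at 36 of the 83 regions ranked higher in the mutant at 2 h. It was positive at 19 of the 40 ranked lower. These 4 regions are therefore examples and not a trait of few sites. CPC, a MYB-type gene of root hair patterning, was called in both mutant lists and neither WT list at 2 h, with a mean percentile of 4.23 (3.10 and 5.35), and in both WT lists and neither mutant list at 0 h (16.4 and 11.4); it was chosen after its values were seen, and all 4 calls were weak. At AT4G11630, a ribosomal protein L19 gene, the percentile difference (mutant minus WT) was 44.8 at 2 h and -7.01 at 0 h, which is 51.8 points apart. At the transcript end of PSK4, a phytosulfokine peptide gene, it was 12.8 at 2 h and -3.73 at 0 h, 16.5 points apart. In replicate 2 at 0 h the genotypes were nearly equal there, with 88.9 in WT and 88.8 in the mutant. An upstream PSK4 site went the other way at 2 h, with 39.7 and 28.1 in WT and 26.2 and 5.35 in the mutant. At the MYB96 transcript-end site it was -13.9 at 2 h and 14.4 at 0 h, a difference of -28.3 points.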

How the results depend on the processing

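WT-only and mutant-only counts held within 1.5 times (62 to 76 and 51 to 72; genes in place of regions 52 and 55) except with peaks at or above each list's median score (36 and 37), within same-numbered pairs (the replicate block, with means of 480 and 580.5 regions) and without 1 library (156 to 341 and 176 to 544), where the rule asks less. The WRKY33 promoter met the rule in 5 of 6 settings: merged over all 8 lists it joined the downstream site. With the median score 55.6% of WT-only and 94.6% of mutant-only regions had a call at 0 h. The share was 15.9% of WT-only regions without WT 0 h replicate 1, 71.2% of mutant-only regions within replicate 1 lists, and 12.7% and 62.7% within replicate 2 lists. These settings at 0 h, and all for non-overlapping groups, were chosen after seeing the data. limma called no percentile shift under any setting, the block included. For maxima it called 0 to 15 regions with 1 library left out. Non-overlapping regions numbered 52 (mutant higher) and 41 (lower) among regions at or above the median mean percentile, and 238 to 298 and 222 to 277 with 1 library left out; maxima 100 bp or more apart then numbered 26 to 51. At AT1G26410 the midpoint moved by -45.0 bp, against the maximum. All 344 alternative percentile differences at 37 named regions kept their direction. These regions were chosen because the genotypes did not overlap, so leaving out 1 library or adding the block could not reverse them. The count is therefore no support for the differences. The promoter share kept its direction, with the block too (2.9 points; exact p = 0.5, the smallest possible). W-box letters were not analysed here. Weak calls limit most WT-only and mutant-only regions: only 3 WT-only and 2 mutant-only regions lay above the median of both lists that called them.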
